A study of Mus musculus with 26 samples.

Results

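The liver both receives and activates glucocorticoid hormone, and 10 genes of that pathway were followed here through livers of mice kept under chronic jet lag lighting. The genes were taken by name: the receptor Nr3c1, the activating enzyme Hsd11b1, and the response genes Tsc22d3, Fkbp5, Sgk1, Tat, Mt1, Mt2, Lpin1 and Dusp1. They were 10 of the 36883 gene names in the deposited count table, each stood on 1 line of it, and all 10 passed the filter on low counts.

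The study measured liver mRNA in 26 libraries, 1 for each labelled Eu-MYC mouse. In this mouse line an enhancer of the immunoglobulin heavy chain drives a Myc transgene in B-lineage cells, so the transgene is aimed at B cells and not at hepatocytes, and the line is known for B-cell lymphoma. The libraries fell into 8 from females under chronic jet lag lighting (CJL), 8 from females under 12 hours of light and 12 hours of dark (12:12), 4 from males under CJL and 6 from males under 12:12. Lighting lasted 8 weeks. All 4 groups carry the transgene, and the age and health of the mice, the hour of collection and the shift schedule are not stated in the labels.

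Glucocorticoid is secreted by the adrenal cortex in a daily rhythm and in response to stress. Inside the hepatocyte, the enzyme encoded by Hsd11b1 regenerates the active hormone, corticosterone in mice, from its inactive keto form. The receptor encoded by Nr3c1 waits in the cytoplasm in a complex with heat shock protein chaperones, enters the nucleus when hormone binds, and acts on DNA elements near target genes. The liver uses this pathway to adjust amino acid breakdown, glucose output, lipid handling and inflammation.

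The libraries held 45364557 to 50242019 counts each, so a count of 0 allowed at most 0.0661 CPM (counts scaled to the library total), and every member was detected in every library. Albumin took 10% to 22.1% of the counts. The summed level of the 10 hepatocyte markers ranged from 140191 to 250982 CPM, and of 5 adrenal cortex genes Cyp11b1 and Mc2r were at 0 throughout, while all 5 summed to 0.36 to 2.94 CPM. Of the adrenal list 2 genes could be tested, and Star, a cholesterol carrier of steroid synthesis, was lower under CJL (log2 fold change -0.79 ± 0.18 SE; edgeR, adjusted p = 0.0339), a call lost in 13 of the 26 fits without 1 library. Cd79a, which encodes a part of the B-cell receptor, divided the libraries: 8 libraries had 14.5 to 144 CPM and the other 18 had 1.28 to 2.95 CPM, with none between. The 8 libraries were female CJL libraries 2, 5 and 6, female 12:12 libraries 6 and 7, male CJL library 8, and male 12:12 libraries 3 and 5. A second check, made after the values were seen, set genes with long transcripts (6475 bases or more) against genes with short ones (2463 bases or less). The median log2 level of the long genes minus that of the short genes was -0.92 in male CJL library 7 and -0.36 in female 12:12 library 6, and it did not exceed 0.19 in any library. Nr3c1, Fkbp5 and Lpin1 belong to the long class, and Tat, Mt1 and Mt2 to the short one.

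Per kilobase of exon, the median level over all libraries was 361 CPM per kilobase for Tat, 164 for Hsd11b1, 155 for Mt1 and 83.2 for Mt2. It was 13.1 CPM per kilobase for Tsc22d3, 7.24 for Lpin1, 5.07 for Nr3c1, 3.32 for Fkbp5, 3.08 for Sgk1 and 2.39 for Dusp1. Neighbours in this order overlapped across libraries: Mt1 ran from 3.46 to 838 and Hsd11b1 from 136 to 202 CPM per kilobase. The order was not the same in every group: in CJL males the median of Mt2 was 11.9 CPM per kilobase, below the 15.4 of Tsc22d3, whereas in CJL females Mt2 stood at 150 and Tsc22d3 at 11.1. All other levels are given as CPM, the count as a share of the library total, and compare 1 gene between libraries.

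**Figure D1:**
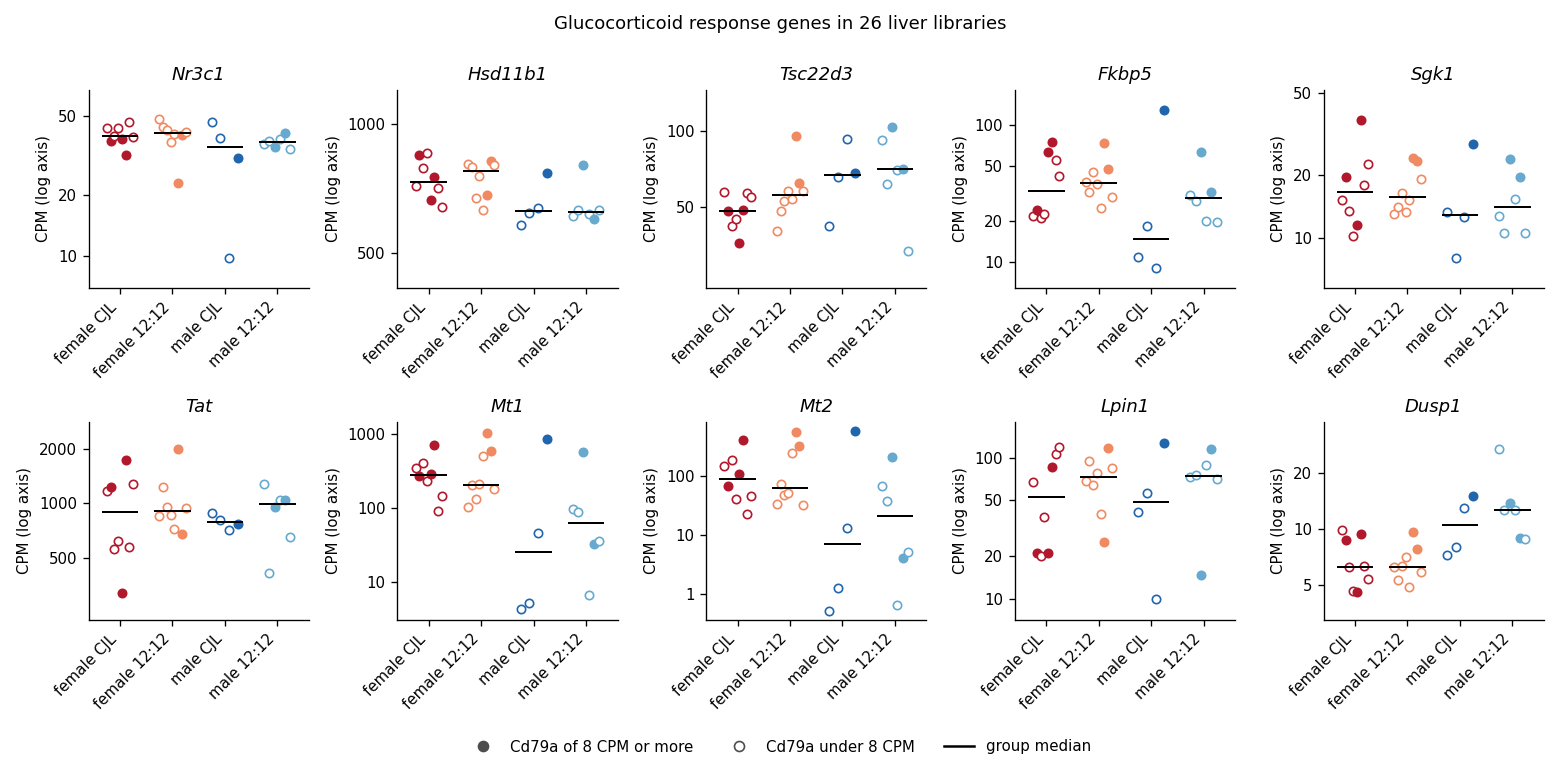
Level of each of the 10 genes in CPM (log axis) in the 26 libraries, by sex and lighting. Filled points are libraries with Cd79a of 8 CPM or more, open points the others, and the line is the group median; Mt2 runs from 0.502 to 588 CPM, whereas Hsd11b1 stays between 579 and 858 CPM.

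The receptor and the activating enzyme did not pass the test for a lighting difference. Nr3c1 had 31.9, 39.4 and 46.2 CPM (lowest, median and highest) in CJL females, against 23.1, 40.9 and 47.8 CPM in 12:12 females. In CJL males it had 46.3, 38.8, 9.7 and 30.6 CPM, against 34.1, 36.8 and 41.1 CPM (lowest, median and highest) in 12:12 males. The groups overlapped in both sexes, and the 9.7 CPM came from male CJL library 7, the library shortest of long transcripts. Over both sexes the log2 fold change of Nr3c1, CJL over 12:12, was -0.12 ± 0.15 (SE; edgeR quasi-likelihood test, adjusted p = 0.999). Without the 2 libraries short of long transcripts it was -0.07. A part of transcript length in the low values was not tested beyond this.

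Hsd11b1 was the steadiest of the 10. It had 639, 733 and 858 CPM in CJL females, against 630, 775 and 821 CPM in 12:12 females. It had 579, 618, 637 and 770 CPM in CJL males, against 601, 623 and 804 CPM in 12:12 males. The highest library held 1.48 times the CPM of the lowest, and the SD of log2 CPM within groups, 0.16, lay at the 3.18 percentile of all genes tested. The log2 fold change for CJL over both sexes was -0.01 ± 0.08 (SE), with an interval of 2 SE each way from -0.16 to 0.14.

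Fkbp5 encodes a co-chaperone that lowers the receptor's affinity for hormone and is itself induced by it, which makes it a common readout of the pathway. It had 20.9, 33.1 and 74.9 CPM in CJL females, against 24.6, 37.7 and 73.8 CPM in 12:12 females. In CJL males it had 10.9, 18.3, 9.1 and 127 CPM, against 19.6, 29.2 and 63.3 CPM in 12:12 males. The CJL libraries lay at both ends: 4 of 8 CJL females and 3 of 4 CJL males were below every 12:12 library of their sex, while 1 CJL female and 1 CJL male were above every one. The SD of log2 CPM within groups was accordingly 1.09 under CJL against 0.49 under 12:12, values given as a description without a test of the difference. The CJL libraries at the upper end, female library 6 and male library 8, both had high Cd79a. The lowest value, 9.1 CPM, came from male CJL library 7, the library shortest of long transcripts, and Fkbp5 is a long one. The 4 low CJL females, at 20.9 to 23.8 CPM, lay narrowly below the 24.6 CPM of the lowest 12:12 female. The part of Cd79a and of transcript length in this spread was not tested. The log2 fold change over both sexes was 0.07 ± 0.32 (SE; edgeR, adjusted p = 0.999). With the 8 libraries of high Cd79a left out it was -0.44 (adjusted p = 0.412), so neither direction passed the test.

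Tsc22d3 encodes GILZ, a leucine zipper protein that carries part of the anti-inflammatory action of glucocorticoid. It had 36, 48.3 and 57.1 CPM in CJL females, against 40.1, 55.7 and 96 CPM in 12:12 females, and 42, 65.5, 93.5 and 68.1 CPM in CJL males, against 33.4, 70.5 and 104 CPM in 12:12 males. Its adjusted p was the lowest among the members for CJL over both sexes, 0.943 by edgeR, with a log2 fold change of -0.20 ± 0.15 (SE) and 3 of 12 CJL libraries above the 12:12 median. Sgk1 encodes a kinase that regulates ion transport and cell survival. It had 10.2, 16.6 and 36.8 CPM in CJL females, against 13, 15.7 and 24.2 CPM in 12:12 females, and 13.3, 8, 12.5 and 28.2 CPM in CJL males, against 10.5, 14 and 24 CPM in 12:12 males. Its groups overlapped, and its log2 fold change was 0.04 ± 0.18 (SE).

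Tat and Lpin1 carry the metabolic arm. Tat, tyrosine aminotransferase, begins the breakdown of tyrosine and is a classic glucocorticoid-induced liver enzyme. It had 318, 893 and 1725 CPM in CJL females, against 675, 900 and 2002 CPM in 12:12 females. In CJL males it had 880, 812, 708 and 763 CPM, against 410, 995 and 1268 CPM in 12:12 males. In females 4 of 8 CJL libraries were below every 12:12 library, but the medians were close and the log2 fold change over both sexes was -0.17 ± 0.22 (SE). Lpin1, lipin 1, is a phosphatidate phosphatase of triglyceride synthesis and also a coactivator of fat oxidation genes. It had 20, 52.4 and 119 CPM in CJL females, against 25.1, 73.3 and 117 CPM in 12:12 females, and 41.2, 56.1, 9.91 and 128 CPM in CJL males, against 14.7, 74.3 and 116 CPM in 12:12 males. The lowest value was again in male CJL library 7, and the log2 fold change of -0.33 ± 0.36 (SE) was the lowest of the 10.

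Mt1 and Mt2 encode the metallothioneins, small cysteine-rich proteins that bind zinc and copper and are induced in liver by metals, glucocorticoid and inflammation. Mt1 had 92.5, 285 and 721 CPM in CJL females, against 103, 208 and 1044 CPM in 12:12 females. In CJL males it had 4.31, 5.18, 45.6 and 864 CPM, against 6.7, 62.1 and 570 CPM in 12:12 males. Male CJL library 8 alone was above all 12:12 males, and 2 of the other 3 CJL males were below all of them. Mt2 had 22.8, 88 and 405 CPM in CJL females, against 31.5, 62.5 and 552 CPM in 12:12 females. In CJL males it had 0.502, 1.24, 12.8 and 588 CPM, against 0.635, 21.1 and 208 CPM in 12:12 males. The spread between mice of 1 group was among the widest in the table: the SD of log2 CPM within groups was 1.81 for Mt1 and 2.48 for Mt2, at the 98.3 and the 99.7 percentile of all genes tested. The log2 fold changes for CJL over both sexes were 0.10 ± 0.65 and 0.29 ± 0.84 (SE), and the interval of 2 SE each way for Mt2 ran from -1.39 to 1.98, so a change of severalfold was not detectable in this gene.

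Dusp1 encodes a phosphatase that switches off MAP kinases and is induced by glucocorticoid as part of its anti-inflammatory action. It had 4.56, 6.28 and 9.91 CPM in CJL females, against 4.87, 6.29 and 9.64 CPM in 12:12 females. It had 7.26, 8.04, 13 and 15.1 CPM in CJL males, against 8.88, 12.6 and 26.7 CPM in 12:12 males. The lighting groups overlapped in each sex, with a log2 fold change over both sexes of -0.12 ± 0.18 (SE).

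Counted together, 0 of the 10 members passed the test for CJL over both sexes, where 0.781% of the 16892 genes tested did, 0.444% higher and 0.337% lower. No member had an unadjusted p under 0.05 in that test, against 1353 of all genes, and DESeq2 and limma-voom also called 0 members. The members' median log2 fold change was -0.07, against 0.02 over all genes tested. Within females 0 members passed, where 0% of all genes did although 772 had an unadjusted p under 0.05. Within males 0 passed, where 0.0118% of all genes did. The difference of the response, females minus males, was likewise called for 0 members, with 0% of all genes called and 902 at an unadjusted p under 0.05. Its log2 value ran from -1.71 for Mt2 to 0.40 for Dusp1, with 2 SE each way for Mt2 reaching from -5.13 to 1.71. In the authors' deposited table, which sets 12:12 over CJL, no member passed an adjusted p of 0.05, where 1.26% of the 17669 genes with an adjusted p did, and the lowest of the members was 0.937 for Tsc22d3.

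**Figure D2:**
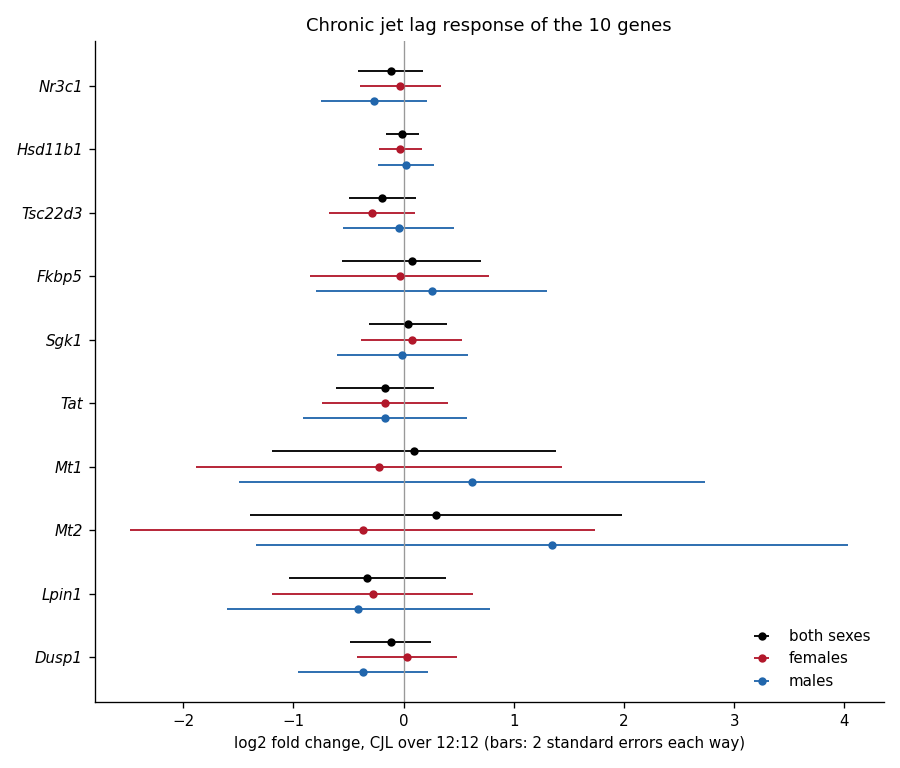
Log2 fold change of each gene, CJL over 12:12, over both sexes, in females and in males; bars reach 2 standard errors each way. Every bar crosses 0, and the bars are shortest for Hsd11b1 (-0.16 to 0.14 over both sexes) and longest for Mt2 in males (-1.34 to 4.03).

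Lists of related genes also gave 0 calls for lighting, where 0.781% of all genes tested passed. A count of 0 is near that share, and nothing particular to these lists is read from it. Of 7 genes of steroid handling, 16 chaperones and cofactors of the receptor, 28 further glucocorticoid targets, 5 zinc genes, 12 paralogs of the members, 10 immediate early genes and 10 acute phase genes, 0 passed for CJL over both sexes. The medians of these lists ran from -0.14 to 0.02 on the log2 scale, against 0.02 over all genes tested. The nearest target was Per1, a clock gene that hormone-bound receptor also induces directly, with 3.14, 15.8 and 56.5 CPM in CJL libraries, against 35.4, 51.2 and 85.6 CPM in 12:12 libraries. Its log2 fold change was -1.23 ± 0.32 (SE; edgeR, adjusted p = 0.0755). It passed the test by DESeq2 (adjusted p = 0.00672), by limma-voom (0.0111), with Cd79a as a covariate (0.0428) and without the high-Cd79a libraries (0.0491). It also passed without any 1 of female CJL libraries 6 and 8 and male CJL library 8 (adjusted p = 0.0423, 0.0219 and 0.0185). Pdk4, a kinase that restrains glucose oxidation, had 1.8, 4.15 and 35.5 CPM in CJL libraries, against 0.406, 2.09 and 5.78 CPM in 12:12 libraries, at a log2 fold change of 1.75 ± 0.48 (SE; adjusted p = 0.0959). It passed by DESeq2 (0.00327) and without male CJL library 8 (0.0388). Abcb1a, an efflux pump that carries corticosteroids, stood at -0.75 ± 0.20 (SE; adjusted p = 0.0855). It passed by DESeq2 (0.0203), without the high-Cd79a libraries (0.0354), without female CJL library 1 (0.0351) and without female 12:12 library 6 (0.0366).

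The nearest genes of the other lists did not pass this test. Slc30a10, a manganese exporter counted here with the zinc transporter family, had 4.6, 15.8 and 31.4 CPM in CJL libraries, against 2.83, 7.54 and 20.9 CPM in 12:12 libraries (log2 fold change 0.99 ± 0.29 SE; edgeR, adjusted p = 0.138). It passed by DESeq2 (0.0303), without the high-Cd79a libraries (0.0485) and without male CJL library 8 (0.0193). Mtf1, the zinc sensor that drives metallothionein genes, had 4.95, 8.42 and 11.2 CPM, against 7.7, 8.96 and 13.4 CPM. Among paralogs, the kinase Sgk2 stood at 0.49 ± 0.19 and the phosphatase Dusp6 at -0.42 ± 0.17 (adjusted p = 0.407 and 0.427). The mineralocorticoid receptor Nr3c2 stood at -0.48 ± 0.23 and the coactivator Ep300 at -0.16 ± 0.11. The immediate early genes Egr1 and Jun stood at 0.96 ± 0.48 and -0.35 ± 0.18, and the acute phase genes Fgb, a fibrinogen chain, and Saa3, a serum amyloid, at 0.31 ± 0.12 and -0.30 ± 0.25. Their adjusted p-values were 0.358 or more. Egr1 was 0.21 without male CJL library 8 and 1.36 without female 12:12 library 7. Without 1 library Saa3 ran from -0.43 (female CJL library 5 left out) to -0.12 (male 12:12 library 2), and Ep300 from -0.25 (male CJL library 8) to -0.08 (male CJL library 7).

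The clock list differed from these. Of 15 core clock and clock output genes tested, 1 rose under CJL and 4 fell, and the list's median log2 fold change was -0.57. Npas2, a partner of the clock activator, had 0.204 to 8.83 CPM in CJL libraries, against 0 to 0.58 CPM in 12:12 libraries (edgeR, adjusted p = 0.00371). Usp2, Per2, Ciart and Tef fell, with log2 fold changes from -2.21 for Ciart to -1.002 for Tef. Without 1 library, Ciart lost its call in 16 and Tef in 20 of 26 fits.

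Between sexes, Dusp1 was the single member that passed the test. Under 12:12 it had 4.87, 6.29 and 9.64 CPM in females, against 8.88, 12.6 and 26.7 CPM in males. Of the 8 females, 7 lay below every 12:12 male, and over both lighting conditions 11 of 16 females lay below all 10 males. The log2 fold change, females over males under 12:12, was -1.23 ± 0.24 (SE; edgeR, adjusted p = 0.00319), which is 0.426 times the male level. That is 1 of 10 members, where 3.68% of all genes tested passed in either direction, 2.01% higher and 1.67% lower in females. Dusp1 stayed past the threshold in all 26 fits that left out 1 library, with log2 fold changes from -1.35 to -0.88. The smallest came without male 12:12 library 1, the library at 26.7 CPM. Ergic1, on the opposite strand, shares 11 exon bases with Dusp1 in the annotation and had a log2 fold change of -0.22 ± 0.11 (SE; adjusted p = 0.312) in the same comparison.

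The other 9 members did not pass between sexes. Tsc22d3 came nearest, at -0.43 ± 0.21 (SE; adjusted p = 0.29), with 1 of 8 females above the male median. Mt1 and Mt2 were above the male median in all 8 females under 12:12, at log2 fold changes of 1.31 ± 0.93 and 1.51 ± 1.19 (SE; adjusted p = 0.513 and 0.564). They were 2.60 and 2.61 without male 12:12 library 3, and 0.90 and 0.96 without female 12:12 library 6. For both genes the interval of 2 SE each way included 0. Hsd11b1 was also above the male median CPM in 8 of 8 females, and its log2 fold change was 0.09 ± 0.11 (SE). The fold changes carry a further scaling of the libraries (TMM) that the CPM levels do not. Among related genes, named after their values were seen, the steroid pump Abcb1a was higher in females (1.23 ± 0.27, adjusted p = 0.00904) and the steroid-reducing enzyme Srd5a1 lower (-1.34 ± 0.38, adjusted p = 0.0458), a call that 19 of the 26 fits without 1 library did not keep. Of the 28 further targets, G6pc, the last enzyme of glucose release, and Tdo2, which begins tryptophan breakdown, were lower in females (log2 fold changes -1.53 and -0.71), and 26 did not pass. Without 1 library, G6pc lost its call in 7 and Tdo2 in 3 of 26 fits.

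The libraries were then split by Cd79a, 8 at 8 CPM or more against 18 below. This split was made from the libraries' own values and is no group of the study, so its test describes an association. Fkbp5, Sgk1, Mt1 and Mt2 were higher in the high-Cd79a libraries, by 2.12-fold, 1.49-fold, 4.46-fold and 5.82-fold, and no member was lower. These are 4 of 10 members, where 42.7% of all genes tested passed in either direction and 23.1% were higher and 19.6% lower. The share is therefore near that of the table as a whole, and nothing about the members in particular is read from it. In bulk tissue, a change in the number of cells of a type and a change in RNA per cell cannot be told apart.

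Fkbp5 had 23.8, 63.2 and 127 CPM in the high-Cd79a libraries, against 9.1, 26.1 and 55.6 CPM in the others, and 5 of the 8 were above all 18. In males the 3 high-Cd79a libraries (32.2, 63.3 and 127 CPM) did not overlap the other 7 (9.1 to 30.7 CPM), a separation that 16.8% of all genes tested also showed. Its log2 fold change, with sex and lighting in the model, was 1.09 ± 0.26 (SE; edgeR, adjusted p = 0.00149). Female CJL library 2, the one with the lowest Cd79a of the 8, had the lowest Fkbp5 among them.

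Sgk1 had 11.5, 23.7 and 36.8 CPM in the high-Cd79a libraries, against 8, 13.4 and 22.7 CPM in the others. Again the males did not overlap, with 19.5, 24 and 28.2 CPM against 8 to 15.4 CPM, as in 16.8% of all genes tested. The females overlapped, with 11.5 to 36.8 CPM against 10.2 to 22.7 CPM. The log2 fold change was 0.58 ± 0.15 (SE; adjusted p = 0.00273).

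Mt1 had 32.5, 584 and 1044 CPM in the high-Cd79a libraries, against 4.31, 118 and 501 CPM in the others, with a log2 fold change of 2.16 ± 0.58 (SE; adjusted p = 0.00423). Mt2 had 3.98, 266 and 588 CPM, against 0.502, 39.1 and 241 CPM in the others, with a log2 fold change of 2.54 ± 0.78 (SE; adjusted p = 0.011). In both genes male 12:12 library 5 stood low among the 8, at 32.5 and 3.98 CPM, and the other 7 were at or above 275 CPM of Mt1 and 67.7 CPM of Mt2. The call of Mt2 depended on male CJL library 8, its highest value: without that library the log2 fold change was 1.82 (adjusted p = 0.0543).

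Nr3c1 had 23.1, 36.2 and 41.1 CPM in the high-Cd79a libraries, against 9.7, 40.1 and 47.8 CPM in the others, and did not pass (log2 fold change -0.32 ± 0.15 SE, adjusted p = 0.0744). It passed without male CJL library 7, at -0.38 (adjusted p = 0.000647), and without male 12:12 library 5, also at -0.38 (adjusted p = 0.0434). With both libraries short of long transcripts left out, the count of called members was 5. For Hsd11b1, Tsc22d3, Tat, Lpin1 and Dusp1 the log2 fold changes lay between -0.16 for Lpin1 and 0.17 for Tat and did not pass.

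**Figure D3:**
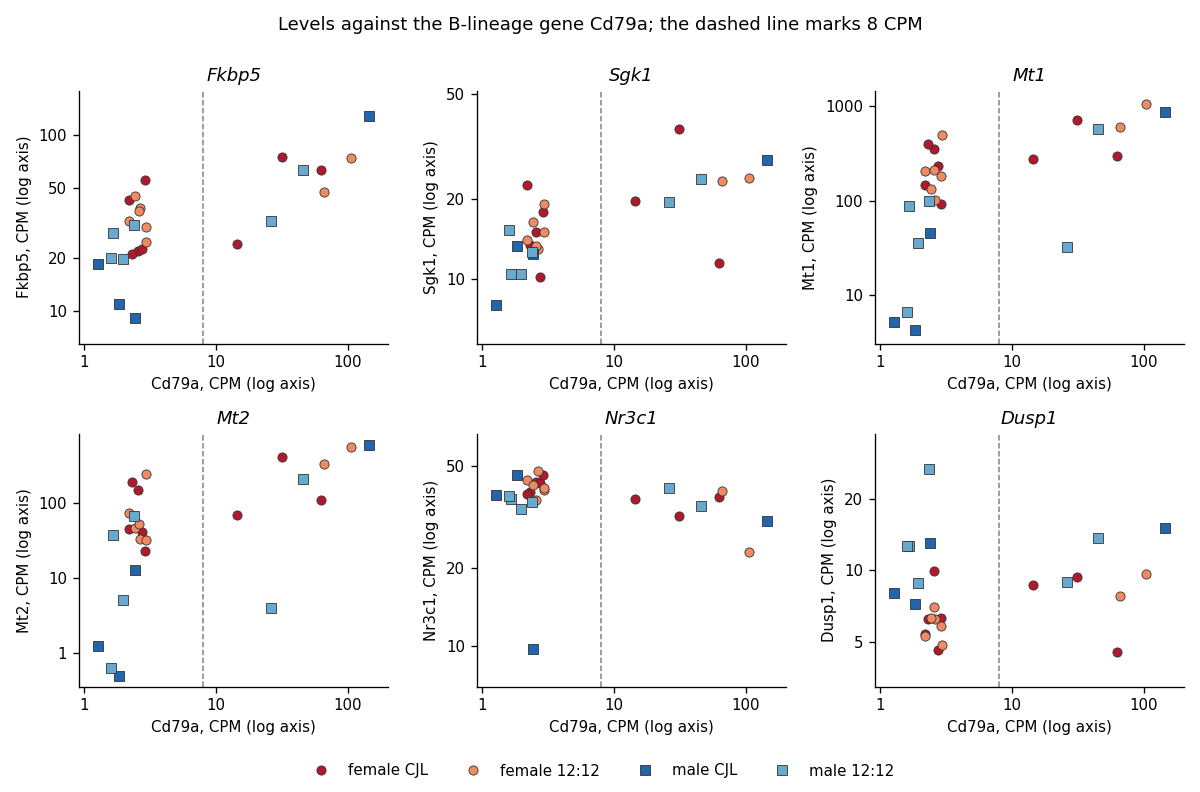
Levels of 6 members (vertical, CPM, log axis) against Cd79a (horizontal, CPM, log axis) in the 26 libraries, circles for females and squares for males, with a dashed line at 8 CPM. Fkbp5 reaches 127 CPM in the library with the highest Cd79a, 144 CPM, and Nr3c1 is lowest, at 9.7 CPM, in a library left of the line.

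Markers of other cell types were set against the same split, where 23.1% of all genes tested were higher and 19.6% lower. The 12 B-lineage markers summed to 172 to 1099 CPM in the high-Cd79a libraries, against 43.3 to 132 CPM in the others, and 10 of 12 were called higher, as the split itself chose. The summed neutrophil markers were 20 to 462 CPM, against 3.53 to 13.3 CPM, with 9 of 9 tested called higher. The summed macrophage and Kupffer cell markers were 502 to 2413 CPM, against 256 to 562 CPM, with 9 of 9 called higher. The erythroid markers summed to 1045 to 11771 CPM, against 809 to 4652 CPM, with 6 of 8 called higher. Of the endothelial markers 3 of 8 were called higher (278 to 427 CPM summed, against 171 to 370 CPM), and of the stellate cell and fibroblast markers also 3 of 8 (320 to 522 CPM, against 157 to 392 CPM). Of the 10 T and NK cell markers 1 was higher and 2 lower, with a median log2 fold change of -0.48. The hepatocyte markers, with albumin and the member Tat among them, summed to 168678 to 250982 CPM, against 140191 to 181259 CPM. Of these 10 markers 1 was called higher and 3 lower, and their median log2 fold change was -0.25, opposite in direction to the sum. The endothelial, stellate cell and fibroblast, T and NK cell and hepatocyte counts are a description, and nothing particular to those cell types is read from them. The part of all these markers in the levels of the members was not tested.

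Of the 28 further glucocorticoid targets, 7 were higher in the high-Cd79a libraries, 3 lower and 18 not called, where 23.1% of all genes tested were higher and 19.6% lower. The counts of this and the following lists are a description, and nothing particular to a list is read from them. Anxa1, an anti-inflammatory protein also abundant in neutrophils and macrophages, had 3.27, 8.19 and 18.9 CPM, against 2.1, 2.98 and 4.01 CPM (log2 fold change 1.38 ± 0.20, adjusted p = 2.22e-06). Ddit4, an inhibitor of mTOR signalling, rose by 1.36 ± 0.28, Cebpd, a transcription factor of the acute phase, by 0.69 ± 0.14, and Lcn2, an iron-binding acute phase protein, by 2.14 ± 0.53 on the log2 scale. The 3 lower were Glul, glutamine synthetase, at -0.72 ± 0.23, Cebpb and Angptl4. Among 16 chaperones and cofactors of the receptor, Hsp90aa1 (1.11 ± 0.20, adjusted p = 8.21e-05), Hsp90ab1 (0.32 ± 0.09), Stip1 and Hspa8 were higher and 0 were lower. Of 10 immediate early genes 6 were higher and 0 lower, and of 10 acute phase genes Hp, Apcs and Itih3 were higher and 0 lower. Of 7 steroid handling genes, Abcb1b was higher, and H6pd, Srd5a1 and Nr3c2, the related mineralocorticoid receptor (-0.77 ± 0.21), were lower. Of 12 paralogs Dusp5, Tsc22d4 and Sgk3 were higher and Tsc22d1, Lpin3 and Dusp16 lower, and of 5 zinc genes Slc39a4 was lower. The genes of these short counts were named after their values were seen.

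The promoters of the 2 metallothioneins are shown because these genes varied most and varied together. The window runs from 250 bases before to 50 bases after the RefSeq start site, on the plus strand of GRCm38.p6, at chr8:94172368-94172667 for Mt2 and chr8:94178839-94179138 for Mt1. The annotated gene span begins at 94172618 for Mt2, the start site used, and at 94178883 for Mt1. Most of the Mt1 window thus lies inside that span, and the 2 windows are not alike in this. Capitals mark matches to TGCNCNC, searched on both strands. This pattern is wider than the core of the metal response element to which the zinc sensor MTF1 binds, so not every match is such a core.
Mt2: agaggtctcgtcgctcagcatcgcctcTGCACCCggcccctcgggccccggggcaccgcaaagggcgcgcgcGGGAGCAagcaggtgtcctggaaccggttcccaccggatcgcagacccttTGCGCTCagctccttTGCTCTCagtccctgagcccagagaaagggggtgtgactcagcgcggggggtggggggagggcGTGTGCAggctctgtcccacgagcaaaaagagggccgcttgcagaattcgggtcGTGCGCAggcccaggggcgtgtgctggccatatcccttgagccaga
Mt1: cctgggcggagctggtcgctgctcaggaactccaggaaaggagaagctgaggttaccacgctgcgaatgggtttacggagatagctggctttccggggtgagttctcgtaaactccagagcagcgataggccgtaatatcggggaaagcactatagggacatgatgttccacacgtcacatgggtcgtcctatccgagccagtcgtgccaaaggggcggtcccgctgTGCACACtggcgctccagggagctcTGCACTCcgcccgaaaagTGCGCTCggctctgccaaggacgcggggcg
The Mt2 window held 6 matches and the Mt1 window 3, with none overlapping. The letters are common: 51% of the 32851 promoter windows in the table held at least 1.

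The exact form of the glucocorticoid response element, AGAACA and TGTTCT with 3 bases of any kind between them, was present in 3 of the 32851 windows, or 0.00913%. One of the 3 belonged to a member: the Sgk1 window at chr10:21993640-21993939, plus strand, where the match in capitals begins at position -189 from the start site.
Sgk1: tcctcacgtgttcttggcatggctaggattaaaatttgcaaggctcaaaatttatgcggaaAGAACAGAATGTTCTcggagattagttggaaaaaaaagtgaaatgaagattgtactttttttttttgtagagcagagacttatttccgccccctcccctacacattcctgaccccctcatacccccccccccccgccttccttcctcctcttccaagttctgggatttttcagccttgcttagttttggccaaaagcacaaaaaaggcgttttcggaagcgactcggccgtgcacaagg
Sgk1 has 6 such windows in the table, and the exact form was in 1 of them. Forms of the element with a mismatch, and sites outside these 300-base windows, were not searched. A window without a match is therefore not read as a gene without an element. The palindrome CACGTG, an E-box bound by clock activators, was in the same Sgk1 window and in windows of Dusp1 and Fkbp5, and in 7.15% of all windows. A match is a description of the letters, and receptor binding was not measured here.

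Mt1 and Mt2, neighbours on chromosome 8 at 94178883 to 94180327 and 94172618 to 94173567, varied together. Over the 18 libraries with low Cd79a, the log2 CPM of the 2 genes, each taken as the deviation from its group mean, correlated at r = 0.960 (Spearman rho 0.915; permutation test, p = 1e-05 each, the smallest that 100000 permutations can give, adjusted over 8 pairs to 8e-05). Without the 2 libraries farthest from the median of Mt1, r was 0.936. For each pair below, the 2 farthest libraries were likewise chosen by the gene named first. The 2 coding sequences are similar, and reads that fit both could have been assigned to either.

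**Figure D4:**
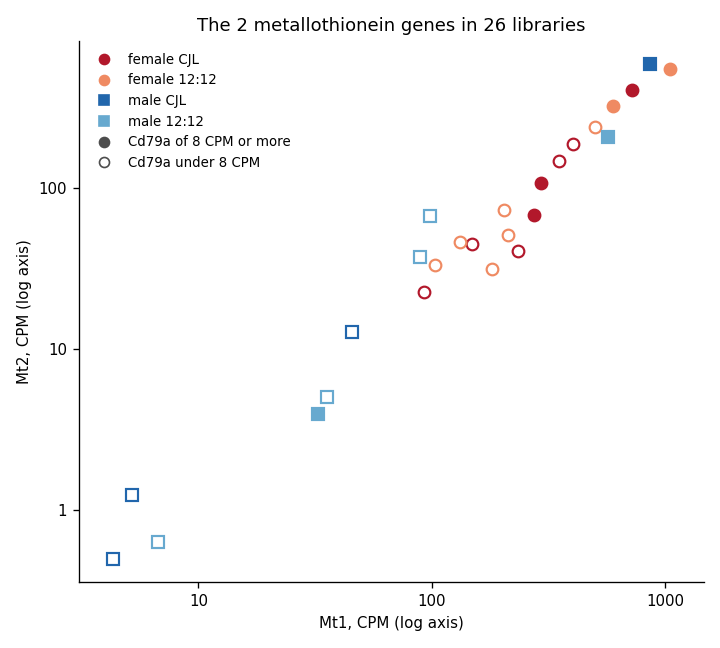
Mt2 against Mt1, both in CPM on log axes, in the 26 libraries; circles are females, squares males, and filled symbols have Cd79a of 8 CPM or more. The points follow 1 line from 4.31 CPM of Mt1 and 0.502 CPM of Mt2 in a CJL male to 1044 and 552 CPM in a 12:12 female.

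Fkbp5 went with the clock gene Per1 in the same 18 libraries, at r = 0.641 (permutation test, p = 0.00087, adjusted p = 0.00348; rho 0.779, adjusted p = 0.00056), and at 0.606 without the 2 farthest libraries. Fkbp5 and Lpin1 correlated at r = 0.640 (permutation test, adjusted p = 0.0102), but by rank the pair did not pass (rho 0.548, adjusted p = 0.0543). Both are long transcripts and both are lowest in male CJL library 7, and r was 0.512 without the 2 farthest libraries. The other 5 pairs tested did not pass, including Tsc22d3 with Fkbp5 (r = 0.297, adjusted p = 0.333) and Tsc22d3 with Per1 (r = 0.275, adjusted p = 0.333). For Nr3c1 and Hsd11b1, r was -0.377 and turned to 0.253 without the 2 farthest libraries, so no relation of receptor and enzyme can be read.

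The genes nearest in pattern to each member, over the 26 libraries after removal of sex, lighting and the Cd79a split, are given as a description among 12701 genes. The pairs share libraries, depth and differences by transcript length. Tat lay nearest to Klf15 (r = 0.819), a regulator of amino acid breakdown, with Cps1, the first enzyme of the urea cycle, also near (0.780). Lpin1 lay nearest to Map3k5 (0.841), Tef (0.823), a clock output factor, and its own paralog Lpin2 (0.802). Fkbp5 lay nearest to Ifrd1 (0.886), Ivns1abp (0.829) and Atr (0.813). Nr3c1 lay nearest to Xpr1 (0.961), Lmbrd2 (0.954) and Zzef1 (0.953). Mt1 and Mt2 were each other's nearest gene (0.970), followed for both by Npc2. Hsd11b1, with its narrow range, reached 0.692 at most, with F10, and Tsc22d3 reached 0.717 with Glt8d1. Sgk1 reached 0.740 with Kcnj8, and Dusp1 0.742 with Ifitm1. Among the members themselves, Tsc22d3 and Dusp1 stood at 0.593 and Sgk1 and Tat at 0.586, while Nr3c1 stood at -0.544 with Tsc22d3.

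**Figure D5:**
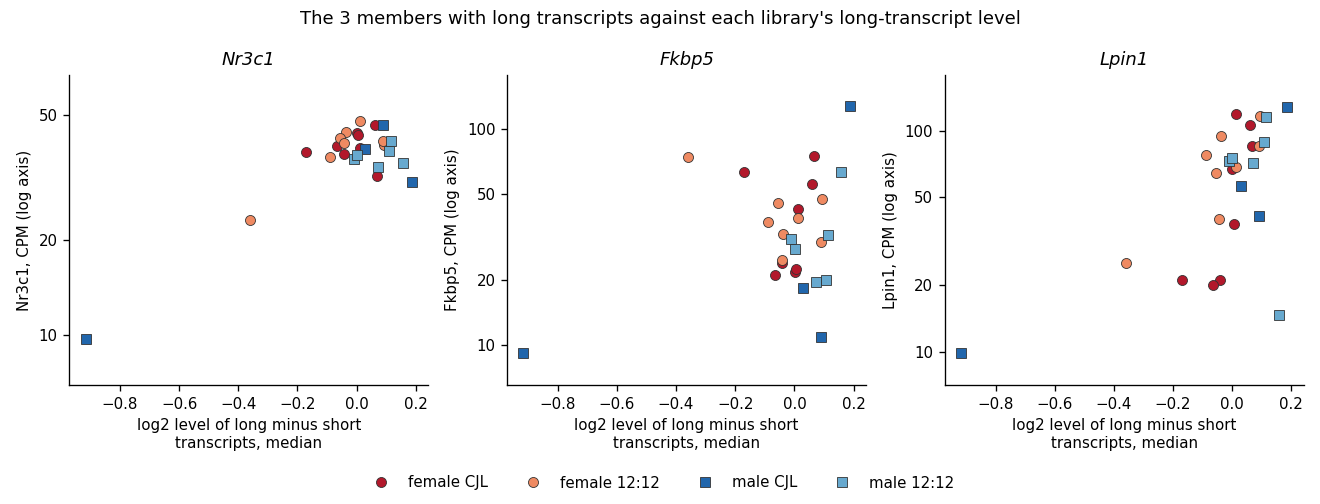
Levels of the 3 members with long transcripts (vertical, CPM, log axis) against the library's median log2 level of long minus short transcripts (horizontal), circles for females and squares for males. Male CJL library 7, at -0.92, is lowest in all 3 genes, with 9.7 CPM of Nr3c1, 9.1 CPM of Fkbp5 and 9.91 CPM of Lpin1.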

How the data were processed

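Liver RNA was made into stranded mRNA libraries on the DNBSEQ platform, per the labels' protocols. The authors deposited 1 table of expected counts per gene for the 26 libraries, in which 0.015 stands for 0 (45.82% of values) and 1.44% of values are not whole (tolerance 1e-06). STAR, DESeq2 and the mm10 build are named in the submitters' processing notes, and the labels state no counting tool, annotation or strand setting. The deposited comparison table of the authors holds log2 fold changes of 12:12 over CJL with p-values, mean signal and a test score per gene, per the file headers. A deposited table of scaled counts was not used. Library labels do not say whether mice were littermates.

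Lines that share a name were summed, 0.015 was set to 0 and counts were rounded to whole numbers. Genes were filtered with filterByExpr (minimum count 10), leaving 16892, scaled by TMM and tested with edgeR 4.0.16 (quasi-likelihood F test, Benjamini-Hochberg adjusted over all genes, threshold 0.05). Lighting was tested with sex as a covariate, lighting within sex and sex under 12:12 by the 4 group means, and the Cd79a split with sex and lighting in the model; SE is the absolute log2 fold change over the root of F, and log2 CPM used a prior count of 2. Alternatives used DESeq2 1.42.0 and limma 3.58.1, and the code was tested on simulated data. Transcript lengths are exon unions of GENCODE vM21, found for 86.8% of genes tested, and positions and promoters are from RefSeq GRCm38.p6; 9 of the 10 members had a promoter window used here.

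The members and gene lists were chosen with earlier results of these data known. All members were named; from each list, up to 5 genes past the lighting test by smallest p, otherwise the 2 with the smallest p, up to 4 further targets with the smallest p for the Cd79a split, and the 3 genes nearest in pattern; 1 gene that this rule names is not reported here. Correlations used permutations of deviations from group means. With 45364557 to 50242019 counts per library, floors allow for counting error alone. No pair of libraries in a group agreed within sampling noise (chi-square per degree of freedom 29.0 or more). P-values measure the spread between these livers.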

Additional observations from a re-analysis of the deposited data

Results flagged for a closer look

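Among 40 combinations of a member and a group, 4 held a library far from the rest of its group on the log2 scale by Dixon's test, and chance alone marks about 1 in 20. Nr3c1 was 23.1 CPM in female 12:12 library 6, against 36.8 to 47.8 CPM in the other 7. Tsc22d3 was 96 CPM in the same library, against 40.1 to 62.2 CPM in the others. That library has Cd79a of 105.2 CPM and a median log2 level of long minus short transcripts of -0.36, and the part of either was not tested.

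Lpin1 was 14.7 CPM in male 12:12 library 3, against 71.2 to 116 CPM in the other 5. This library has Cd79a of 45.57 CPM and the highest Tsc22d3 of all 26, 104 CPM. Dusp1 was 26.7 CPM in male 12:12 library 1, against 8.88 to 13.7 CPM in the other 5 and 4.56 to 9.91 CPM in all females. Cd79a was 2.379 CPM there.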

How the results depend on the processing

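Under each alternative run for a comparison, which differ between comparisons, and in the 26 fits without 1 library, the counts of called members stayed at 0 for lighting over both sexes, in females, in males and for their difference, and at 1 between sexes. For the Cd79a split they ran from 3 to 5. No alternative turned the direction of a called member. The values that turned were uncalled, and the cause was not tested.

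For CJL over both sexes, the log2 fold changes turned as follows. By limma-voom they were -0.249 for Fkbp5, -0.037 for Sgk1, -0.434 for Mt1 and -0.346 for Mt2. Without the high-Cd79a libraries they were -0.444, -0.048, -0.528 and -0.776 in the same order. With Cd79a as a covariate they were -0.161 for Fkbp5, -0.252 for Mt1 and -0.253 for Mt2. Under library totals only, Hsd11b1 was 0.003. For Mt2 in males the value was -0.671 by limma-voom, -2.480 without the high-Cd79a libraries and -0.909 with the covariate, and the sex difference of its response was 0.496, 2.560 and 0.952. Without 1 library the ranges were -0.402 to 0.175 for Fkbp5, -0.090 to 0.110 for Sgk1, -0.901 to 0.536 for Mt1, -1.119 to 0.641 for Mt2, -0.036 to 0.013 for Hsd11b1 and -0.180 to 0.013 for Dusp1. The lowest Mt2 value came without male CJL library 8. For Mt2 they were -3.255 to 2.448 in males and -2.817 to 2.890 for the sex difference. Fkbp5 in males was -0.410 by limma-voom, -0.944 without the high-Cd79a libraries and -0.276 with the covariate, and its sex difference 0.256, 0.796 and 0.180. Without 1 library these ran from -1.244 to 0.566 and from -0.602 to 1.215, with the -1.244 and the 1.215 both without male CJL library 8.

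Between sexes, Nr3c1 was 0.094 under library totals only, 0.099 without the high-Cd79a libraries and 0.083 without the 2 libraries short of long transcripts, where Sgk1 was -0.009 and Tat -0.099. Without 1 library the ranges were -0.072 to 0.072 for Nr3c1, -0.034 to 0.185 for Sgk1 and -0.112 to 0.235 for Tat. For the Cd79a split, library totals only gave 0.101 for Hsd11b1 and 0.021 for Lpin1, and a limit of 16 CPM gave 0.025 for Lpin1 and -0.009 for Dusp1. Without 1 library Lpin1 ran from -0.405 to 0.015, Dusp1 from -0.009 to 0.190 and Tsc22d3 from -0.069 to 0.125. Library totals only moved the median of all genes to 0.14 for the Cd79a split and 0.18 between sexes. The correlation of Nr3c1 and Hsd11b1 turned to 0.253 without the 2 farthest libraries.

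Deviations of same-numbered libraries correlated at -0.384 to 0.602 in females and at -0.269 and 0.267 in males. Differently numbered libraries were not set beside them, so whether the numbers pair mice cannot be told from these values. With the replicate block, 0 members were called for lighting, 1 between sexes and 3 for the Cd79a split, where Mt2 was 2.68 (adjusted p = 0.065). The log2 fold changes for CJL were then 0.045 for Nr3c1, -0.282 for Fkbp5, -0.102 for Sgk1, -0.589 for Mt1 and -0.545 for Mt2, and in males -2.427 for Mt2 and -0.791 for Fkbp5; between sexes Nr3c1 was 0.036 and Sgk1 -0.094. The sex difference of the response was not fitted with the block.

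The counts over all genes also moved, and for the Cd79a split they ran from 5827 to 8179 around 7205. For CJL over both sexes 132 genes were called, against 93 with no filter, 113 by limma-voom, 111 with the replicate block, 274 by DESeq2, 283 with the Cd79a covariate and 380 without the high-Cd79a libraries. Without 1 library it was 70 (female CJL library 3 left out) to 244 (male CJL library 8). In females it was 0 to 13 without 1 library, 7 under library totals only, 13 without the high-Cd79a libraries, 14 from females alone, 19 with the replicate block, 28 with the covariate and 55 by DESeq2. In males it was 0 to 106, with 0 by DESeq2 size factors, 4 with the block, 61 with the covariate, 89 by DESeq2 and 219 without the high-Cd79a libraries. Between sexes the 622 genes became 318 with the block, 346 without male 12:12 library 1, 977 by DESeq2, 1305 with the covariate and 1357 without the high-Cd79a libraries. The spread of Mt1 and Mt2, and 4 males under CJL, limit what a lighting test of these genes can show.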

Other observations

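Single livers combined the members in different ways. Male CJL library 8, with the highest Cd79a, held the highest Fkbp5 (127 CPM), Mt2 (588 CPM) and Lpin1 (128 CPM) of all 26, with Tat at 763 CPM, within the range of the other males. Female 12:12 library 6 held the highest Mt1 (1044 CPM) and Tat (2002 CPM), with Lpin1 at 25.1 CPM, the lowest of its group. In that library the median log2 level of long minus short transcripts was -0.36. Mt1 and Tat belong to the short class and Lpin1 to the long one, and the part of transcript length was not tested. Female CJL library 5 had Fkbp5 of 63 CPM beside the lowest Tat (318 CPM) and Dusp1 (4.56 CPM) of all libraries and the lowest Tsc22d3 of the females (36 CPM). A high level of 1 target in a liver was thus not accompanied by a high level of every other. These livers were picked for their values, and no test was made of them.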
